A study of Mus musculus with 55 samples.

Results

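The 9 genes described here belong to the B cell lineage and were followed through 12 groups of mouse lung: Cd79a, Cd79b, Ms4a1, Cd22, Blk, Fcer2a, Cr2, Pax5 and Ighm. They were chosen by name, with earlier results of these data known. Every probe set of the Affymetrix Mouse 430 2.0 array that is annotated with only 1 of these symbols was used. This gave 23 of 45037 probe sets, for 9 of the 18193 genes with a probe set of this kind. A probe set is a group of short probes read together as 1 value. Each gene is given by the probe set with the highest mean, and its other probe sets by counts and ranges. The genes with 1 such probe set are Cd79a, Cd79b, Blk and Cr2, those with 2 are Ms4a1, Cd22, Fcer2a and Pax5, and Ighm has 11. A further 4 probe sets name Ighm together with other genes and were not used.

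The mice were male C57BL/6, 6 weeks old, and ate their diet for 2 weeks before treatment began. The RNA came from whole lung, with 1 array per mouse. The 4 groups on the AIN-76A diet (AIN) that were injected into the peritoneum were sampled 8 h later: 5 mice given 1 mg/kg dexamethasone (Dex, a synthetic glucocorticoid), 4 given 1 mg/kg sodium arsenite (As), 5 given both, and 5 given saline. The other AIN groups were kept for 5 weeks without injection: 5 mice ate food holding 10 ppb As, 5 were controls with no added As, and the drinking water held 10 ppb As for 4 mice or 100 ppb for 3. The same 4 treatments were given on the LRD-5001 diet (LRD), to 5, 4, 4 and 3 mice. A further 3 mice (As injection E, AIN water 100 ppb B and LRD water 10 ppb C) were set aside because their arrays stood apart, so that 52 of 55 arrays were compared. Mice are named by their group and the letter of their label.

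B cells make antibody. Their antigen receptor is a membrane immunoglobulin, of which IgM (heavy chain gene Ighm) is the first made, joined to the signalling chains CD79A and CD79B. The kinase BLK carries the signal on. CD22 and the complement receptor CR2 adjust its strength, the first downwards and the second upwards. MS4A1 (CD20) is a membrane protein of mature B cells, FCER2A (CD23) is their low-affinity IgE receptor, and PAX5 is the transcription factor that holds cells in the B lineage until they become plasma cells, which keep making immunoglobulin but lose most of the other proteins named here. Glucocorticoids are known to lower the number of circulating lymphocytes in mice. In RNA from a whole organ, fewer B cells and less RNA per B cell cannot be told apart.

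Sequences around an annotated start of 4 of the genes are shown. In the comparison of both Dex groups with both injected groups without Dex, Cd79a, Cd22 and Cr2 were called lower and Pax5 was not. That comparison was added after the values had been seen. Each sequence runs from 250 bases before that start to 50 after it, 5′ to 3′ on the gene's strand. RefSeq on GRCm38.p6, the source, has such a sequence for 5 of the 9 genes. Capitals mark matches on either strand to AGGAAGT (an Ets core), CAGGTG (an E-box), CCCNNGGG (an EBF core), ATGCAAAT (the octamer) and ACANNNTGT (the core of the palindrome that the glucocorticoid receptor binds). No 2 marked matches overlap. The windows are chr7:24897247-24897546 (plus strand) for Cd79a, chr7:30878979-30879278 (minus) for Cd22, chr1:195176670-195176969 (minus) for Cr2 and chr4:44710645-44710944 (minus) for Pax5. The Cd22 window lies wholly inside that gene, whose span begins on this strand at base 30880342.
Cd79a: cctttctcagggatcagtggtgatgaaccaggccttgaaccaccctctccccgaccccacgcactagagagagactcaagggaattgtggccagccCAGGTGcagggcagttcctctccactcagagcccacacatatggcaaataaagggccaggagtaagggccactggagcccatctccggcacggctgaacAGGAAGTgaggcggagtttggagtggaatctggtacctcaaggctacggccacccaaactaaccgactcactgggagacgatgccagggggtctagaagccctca
Cd22: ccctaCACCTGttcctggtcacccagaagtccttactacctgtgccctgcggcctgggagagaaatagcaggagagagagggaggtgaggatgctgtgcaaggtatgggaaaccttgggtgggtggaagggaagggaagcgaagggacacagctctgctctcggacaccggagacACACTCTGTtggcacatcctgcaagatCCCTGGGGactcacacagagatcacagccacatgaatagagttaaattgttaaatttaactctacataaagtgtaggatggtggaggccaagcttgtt
Cr2: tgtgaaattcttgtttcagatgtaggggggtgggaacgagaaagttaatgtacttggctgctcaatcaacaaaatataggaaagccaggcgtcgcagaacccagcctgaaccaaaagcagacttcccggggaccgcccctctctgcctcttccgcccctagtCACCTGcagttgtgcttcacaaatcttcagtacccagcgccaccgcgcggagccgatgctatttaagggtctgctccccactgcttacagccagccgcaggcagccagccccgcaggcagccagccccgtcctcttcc
Pax5: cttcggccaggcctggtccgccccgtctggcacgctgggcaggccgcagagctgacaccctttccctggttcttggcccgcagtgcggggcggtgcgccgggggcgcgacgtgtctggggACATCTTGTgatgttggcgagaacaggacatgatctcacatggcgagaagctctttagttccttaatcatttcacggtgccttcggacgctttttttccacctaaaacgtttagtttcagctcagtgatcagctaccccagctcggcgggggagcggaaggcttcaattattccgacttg

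The E-box was the most frequent of the 5 motifs in these genes. It was found in 4 of the 7 windows of the 5 genes (Fcer2a has 3 starts), and in 20.2% of all 32851 windows in the same table. The receptor palindrome core was in 2 of 7, in Cd22 and in Pax5, and in 6.85% of all. The Ets core was in 1 of 7, in Cd79a, and in 9.35% of all, and the EBF core was in 1, in Cd22, and in 13.7% of all. The octamer was in 0 of 7 and in 1.74% of all. These are matches of letters only, and the array says nothing of binding.

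The labelled tissue was borne out by lung genes. Sftpc, a surfactant protein of alveolar type II cells, lay between 13.96 and 14.32 on the log2 scale in all 52 arrays. Scgb1a1, the secretory protein of club cells, lay between 14.05 and 14.30. Other lung genes varied more, Sftpb, another surfactant protein, from 10.93 to 12.93 and Ager from 13.27 to 14.20. The medians of the 52 arrays ran from 4.25 to 4.37 and their SDs from 2.29 to 2.42, against medians of 4.39 to 4.83 and SDs of 1.17 to 2.23 in the 3 arrays set aside. Genes of neighbouring tissues were high in some samples. The mean of 9 genes of the thymus list (Rag1, Dntt and others) was 8.27 in saline-injected mouse E and 9.95 in AIN water 10 ppb mouse E, and at most 5.28 in every other mouse. That of 8 fat genes ran from 4.40 to 10.19, with the highest values in AIN water 10 ppb mouse A (10.19), saline mouse E (9.56) and AIN water 10 ppb mouse E (8.64).

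**Figure D1:**
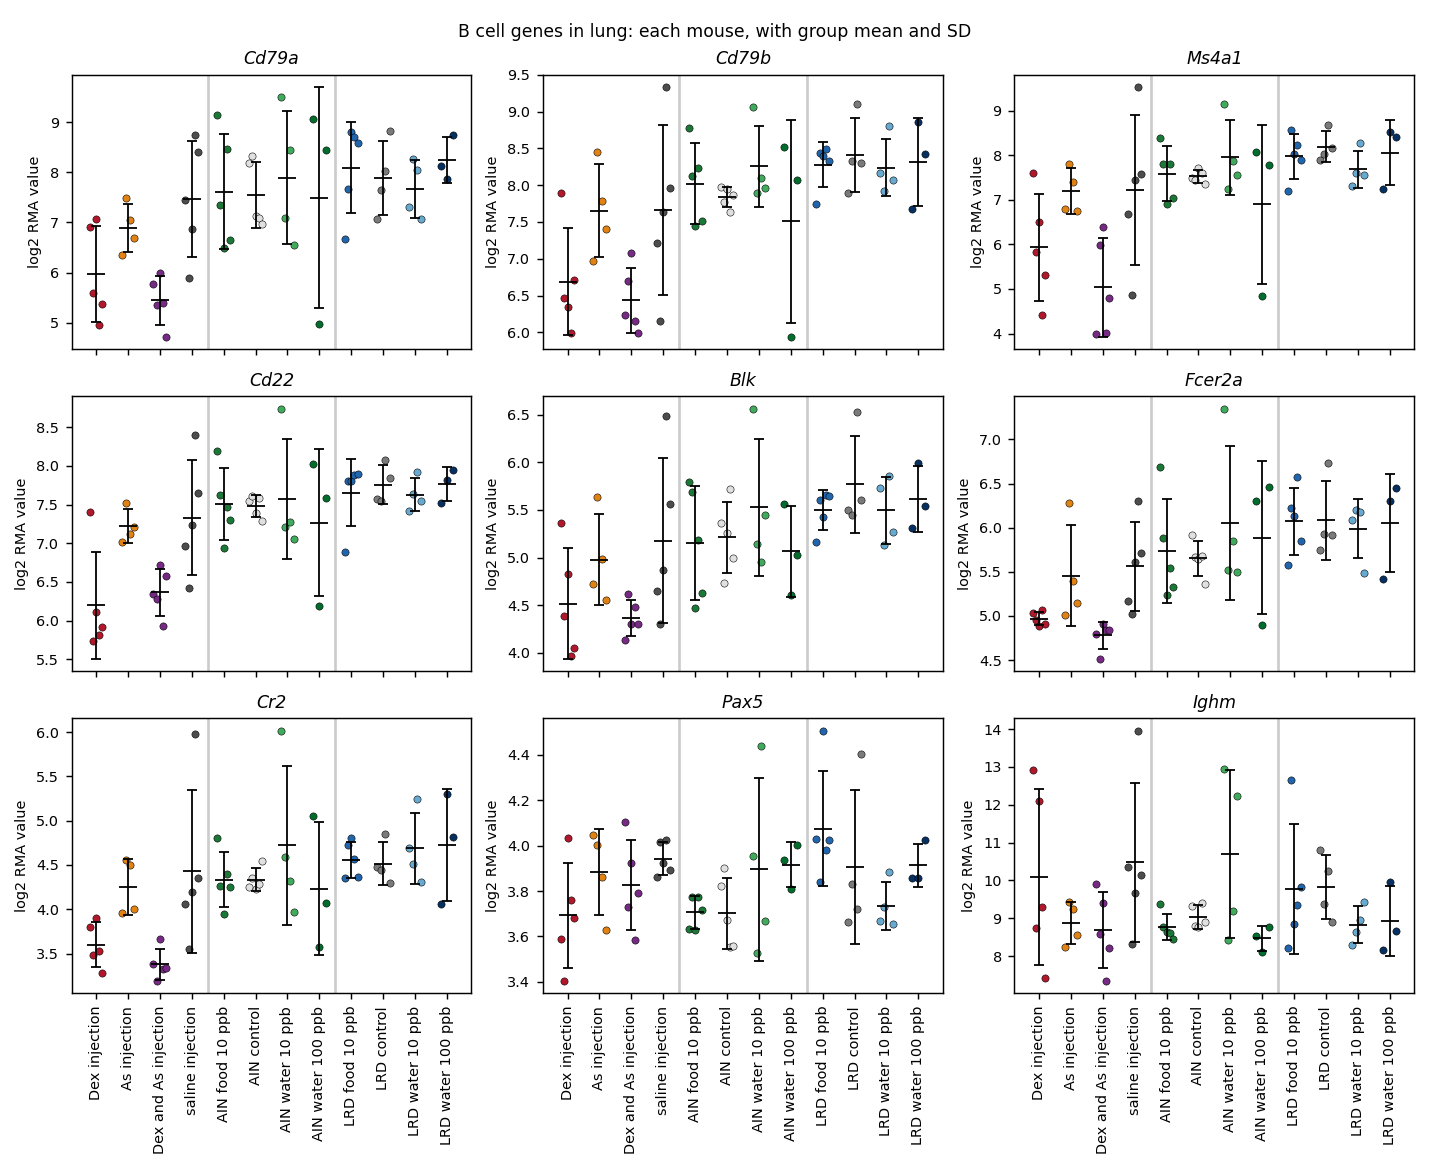
Log2 RMA value of the brightest probe set of each of the 9 B cell genes in 52 mice (1 point per mouse, with the group mean and SD as bars). The groups are on the horizontal axis and the vertical axes differ between genes. The 2 groups given Dex have the lowest means for 7 genes, all but Pax5 and Ighm.

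The Dex and As group had the lowest mean of the 12 groups for 6 genes, and the Dex group for Cd22 and Pax5. For Ms4a1, the means ran from 8.19 ± 0.35 (SD, n = 4) in LRD control mice, through 7.22 ± 1.69 (n = 5) after saline and 7.19 ± 0.51 (n = 4) after As, to 5.93 ± 1.21 (n = 5) after Dex and 5.04 ± 1.11 (n = 5) after Dex and As. No 2 neighbouring groups in the order of Ms4a1 were free of overlap between their mice. Among all 9 genes, neighbouring groups were free of overlap once, for Cd22, where the lowest As-injected mouse (7.01) was above the highest mouse given Dex and As (6.72), these being the 10th and 11th of the 12 groups. These 2 groups were free of overlap in that direction in 2.40% of all probe sets.

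Transcripts of the receptor's signalling chains, CD20, CD22 and CR2 were lower after Dex. The comparison of both Dex groups (10 mice) with both injected groups without Dex (9 mice), which asks what Dex did on average with and without As, was added after the values had been seen. In it 5 of the 9 genes fell at an adjusted p under 0.05, as did 6 of the 23 probe sets, against 2.43% of all probe sets tested that were lower. None rose. The median change of the 9 genes was −0.85 on the log2 scale, beside −0.0001 for all probe sets. In no gene were the 10 mice free of overlap with the 9, which 0.191% of all probe sets were in this direction.

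**Figure D2:**
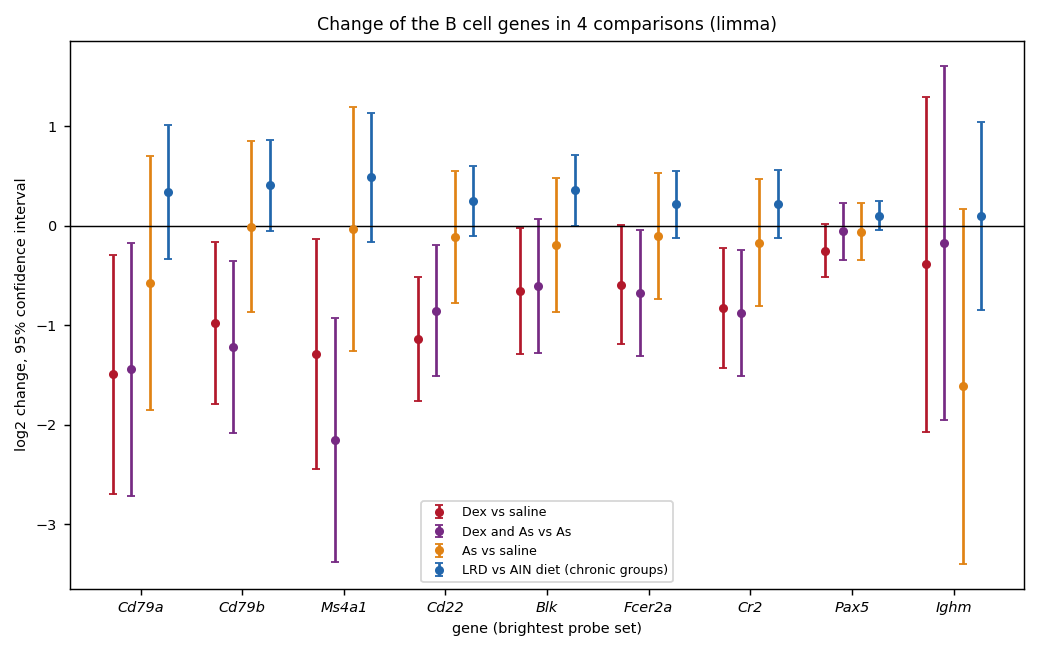
Log2 change of each B cell gene (brightest probe set) with its 95% confidence interval from limma, in 4 comparisons. The change with Dex lies below 0 for all 9 genes both with and without As. In each of these 2 comparisons the interval excludes 0 for 6 of the 9 genes. The intervals for As alone and for the diet include 0 for every gene.

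Cd79a (chr7:24897497-24901858), the first signalling chain, measured 6.92, 5.59, 7.06, 4.95 and 5.37 in Dex mice, 6.35, 7.48, 7.04 and 6.70 in As mice, 5.78, 5.36, 5.99, 5.39 and 4.72 in Dex and As mice, and 7.44, 5.89, 6.88, 8.74 and 8.40 in saline mice. All 5 mice given both agents were below all 4 given As alone. Saline mouse C lay among the Dex mice, and Dex mice A (6.92) and C (7.06) lay among the mice without Dex. The change with Dex over both pairs of groups was −1.47 ± 0.43 (SE), a level 2.77 times lower (limma adjusted p = 0.0413).

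Cd79b (chr11:106311341-106314562), the other chain, measured 7.90, 6.46, 6.35, 5.99 and 6.72 in Dex mice, 6.96, 8.45, 7.79 and 7.41 in As mice, 6.24, 6.69, 7.08, 6.16 and 5.99 in Dex and As mice, and 7.22, 6.16, 7.64, 9.33 and 7.96 in saline mice. Dex mouse A was at the level of the mice without Dex and the other 4 Dex mice were at 6.72 or less. Saline mouse C, at 6.16, lay among those Dex mice. The change with Dex was −1.10 ± 0.29 (limma adjusted p = 0.0194).

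Ms4a1 (chr19:11249679-11266149) had the largest fall of the 9. It measured 7.60, 5.83, 6.51, 4.41 and 5.31 in Dex mice, 6.79, 7.82, 7.41 and 6.75 in As mice, 3.98, 5.99, 6.39, 4.01 and 4.81 in Dex and As mice, and 6.69, 4.85, 7.45, 9.53 and 7.58 in saline mice. Every mouse given both agents was below every mouse given As alone. Dex mouse A, at 7.60, lay among the mice without Dex, and saline mouse C, at 4.85, lay among the mice given Dex. The change with Dex was −1.72 ± 0.42, or 3.30 times lower (limma adjusted p = 0.00767), and its second probe set fell by 1.57 (adjusted p = 0.0222).

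Cd22 (chr7:30865404-30880342), the inhibitory receptor, measured 7.41, 5.74, 6.11, 5.81 and 5.92 in Dex mice, 7.01, 7.53, 7.12 and 7.22 in As mice, 6.34, 6.27, 6.72, 5.93 and 6.57 in Dex and As mice, and 6.96, 6.42, 7.23, 8.40 and 7.65 in saline mice. Dex mouse A stood apart from the other Dex mice, at the level of the mice without Dex. Saline mouse C, at 6.42, lay among the Dex and As mice. The change with Dex was −0.99 ± 0.23 (limma adjusted p = 0.00387).

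Cr2 (chr1:195136811-195176880), the complement receptor, measured 3.81, 3.49, 3.90, 3.53 and 3.29 in Dex mice, 3.96, 4.55, 4.50 and 4.00 in As mice, 3.38, 3.19, 3.66, 3.32 and 3.33 in Dex and As mice, and 4.05, 3.55, 4.20, 5.98 and 4.35 in saline mice. Both Dex groups were below all 4 As mice, and only saline mouse C overlapped them. The change with Dex was −0.85 ± 0.22 (limma adjusted p = 0.0126). In both Dex groups its values lay below the array medians, with means of 3.60 (Dex) and 3.38 (Dex and As). Pax5, which lay near the floor of the array, averaged 3.845 over the 52 arrays, so the size of the Cr2 change is uncertain.

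The other 4 genes did not pass. Blk (chr14:63372837-63417187) changed by −0.63 ± 0.23 (limma adjusted p = 0.135) and Fcer2a (chr8:3680280-3694174) by −0.63 ± 0.22 (adjusted p = 0.102). The 10 Fcer2a values with Dex lay between 4.51 and 5.07, against 5.01 to 6.30 in the 9 mice without it. Pax5 (chr4:44524748-44710694) lay between 3.40 and 4.51 in all 52 mice, near the lower end of the values on these arrays. It changed by −0.15 ± 0.10 (adjusted p = 0.578). Ighm (chr12:113418826-113422730) changed by −0.28 ± 0.61 (adjusted p = 0.945), and its interval, −1.51 to 0.94, includes falls as large as those of the receptor chains.

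By pair of groups the same direction was seen for all 9 genes, and fewer calls. Against saline, Dex alone had 0 of 23 probe sets called, where 0.722% of all probe sets were called lower. At an unadjusted p under 0.05, 6 of the 9 genes were lower, against 4.70% of all probe sets. The nearest to the threshold was Cd22, at −1.14 ± 0.31 (limma adjusted p = 0.0549). Dex and As against saline had 1 probe set called, Ms4a1 at −2.19 ± 0.57 (adjusted p = 0.0384), where 0.602% of all were called lower. This call was lost with all 55 arrays, with the injected mice fitted alone, with array weights (Ms4a1 at −1.41), with a trended prior and without any 1 of 6 of the 10 mice. In that comparison 8 genes had an unadjusted p under 0.05, against 4.36% of all, and 1 gene, Fcer2a, was free of overlap, against 0.999%. Dex and As against As alone had 0 called, against 0.901%, with Ms4a1 at −2.16 ± 0.61 (adjusted p = 0.0572). There 6 genes had an unadjusted p under 0.05, against 5.55% of all probe sets, and 5 genes were free of overlap, against 2.40%. The 3 comparisons share groups of mice. The change with Dex did not differ detectably between mice with and without As: the interaction was called for 0 of 23 probe sets, 0 had an unadjusted p under 0.05, and 0% of all were called. For Ms4a1 the interaction was −0.87, with an interval of −2.55 to 0.82, so the data do not show that As left the Dex change of this gene alone.

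How many probe sets were called depended on the method and on the arrays used. The rank product, which weighs order rather than spread, called 9 of the 23 probe sets lower for Dex against saline (1.45% of all), 10 for Dex and As against saline (1.38%) and 8 for Dex and As against As (1.35%). With the 3 low-quality arrays in the fit, 0 probe sets were called in the average comparison, with Ms4a1 at −1.33 (adjusted p = 0.267). Within each of the 5 array batches, the difference between mice with and without Dex was below 0 for Cd79a, Cd79b, Ms4a1, Cd22, Fcer2a and Cr2, for Ms4a1 between −2.58 and −0.92. It was above 0 in 2 of the 5 batches for Blk and Ighm and in 1 for Pax5. A batch held 1 to 3 mice on each side, and in batches 1, 3 and 4 there was only 1 mouse on 1 side. For Dex alone against saline, in the 3 batches with 1 mouse of each group, Cd79a, Cd79b, Ms4a1, Cd22, Blk and Pax5 were above 0 in 1 batch, Ighm in 2, and Fcer2a and Cr2 in 0.

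Many genes on 2 further lists drawn up for B cells moved with them, though these lists are not limited to genes of B cells alone. Of 33 measured genes of receptor signalling and B cell identity, other than the 9, 18 fell with Dex over both pairs of groups and 0 rose, with a median of −0.69. The share of all probe sets called lower, to set beside this and the following lists, was the 2.43% given above. The 4 with the largest falls were Fcmr, the IgM Fc receptor (−1.83 ± 0.36), Prkcb, a kinase of receptor signalling (−1.70 ± 0.28), Bank1, a scaffold of that pathway (−1.68 ± 0.34), and H2-Ob, which modulates peptide loading on class II molecules (−1.65 ± 0.31), with limma adjusted p of 0.000676, 5.16e-05, 0.00109 and 0.000498. Of 16 genes of trafficking and survival, 9 fell and 0 rose, with a median of −0.59. The leading ones were Itga4, an integrin of lymphocytes (−1.18 ± 0.17), Tnfrsf13b, a receptor for BAFF and APRIL (−1.10 ± 0.22), Ccr7 (−1.01 ± 0.21) and Cxcr5 (−0.98 ± 0.24), the chemokine receptors for the T and B zones of lymph nodes. In other lists, 0 of 13 immunoglobulin and plasma cell genes and 0 of 7 germinal centre genes were called, and the median changes were −0.10 and −0.11. In the first of these lists 3 genes, and in the second 1, were lower at an unadjusted p under 0.05, against 6.89% of all probe sets. The difference between these and the other B cell lists was not tested. The shares of 2.43% and 6.89% are over all 45037 probe sets, of which 21265 were above log2 5 on at least 4 arrays. Each list gene was read by its brightest probe set, so its list and the whole array are not strictly alike.

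**Figure D3:**
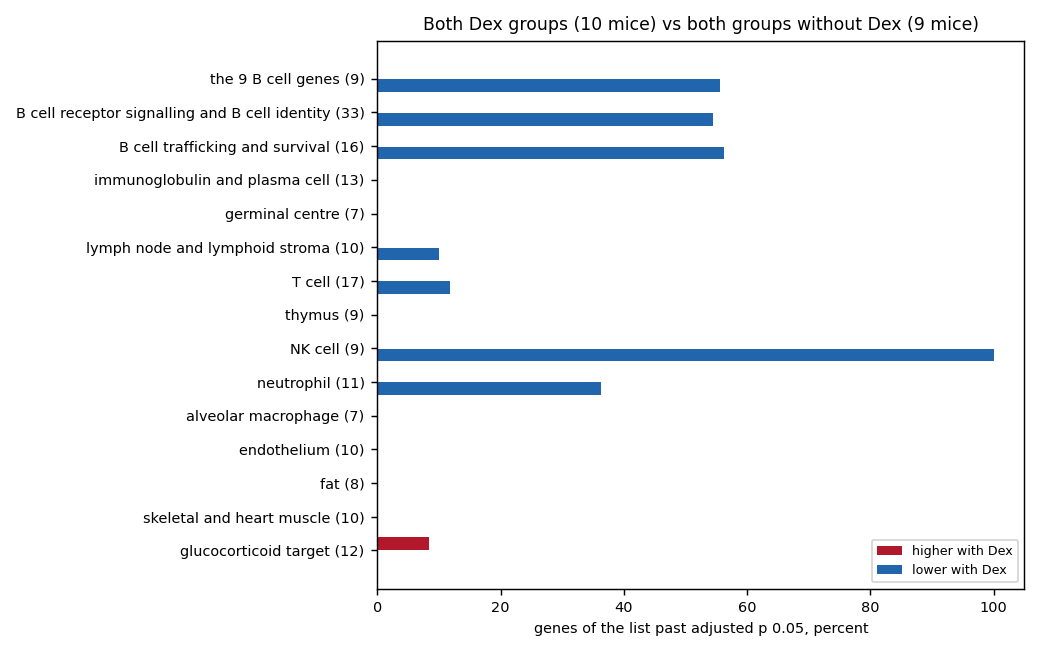
Share of the measured genes of each list (number in brackets) called higher or lower at a limma adjusted p under 0.05 in both Dex groups against both groups without Dex. All 9 NK cell genes, 5 of the 9 B cell genes and 18 of 33 genes of the receptor signalling and B cell identity list were lower.

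The fall was not restricted to B cell genes. All 9 measured genes of NK cells, another kind of lymphocyte, fell, led by Gzma (−1.74 ± 0.28) and Nkg7 (−1.58 ± 0.25), and the list median was −0.88. Of 17 T cell genes 2 fell, Cd3d (−1.31 ± 0.39) and Il7r (−0.59 ± 0.16), with a median of −0.58, and 16 of the 17 changes were below 0. Of 9 thymus genes 0 were called, although all 9 changes were below 0 (median −0.56, 3 with an unadjusted p under 0.05), and the saline group holds the mouse E named above. Of 10 genes of lymph node and lymphoid stroma, Ltb, a cytokine made by lymphocytes, fell (−1.36 ± 0.25). Of 11 neutrophil genes 4 fell, among them Mmp9 (−1.84 ± 0.38) and Csf3r (−1.83 ± 0.36). In the lists of endothelium, alveolar macrophages, fat, and skeletal and heart muscle, 0 genes were called, with medians between −0.03 and 0.39. Of 12 genes listed as glucocorticoid targets, 1 was called, Sult1a1, which was higher (1.26 ± 0.16), and 11 changes were above 0. The mean of these 12 genes was 9.95 after Dex and 10.01 after saline, so Dex alone did not raise it above saline. It was 10.22 after Dex and As and 9.47 after As. The part of any of these cells in the B cell values was not tested.

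Injected As alone left no detectable change. In As mice against saline mice 0 of 23 probe sets were called, as were 0% of all probe sets, and 0 of the 9 genes had an unadjusted p under 0.05. The 9 changes were all below 0, with a median of −0.11, which became 0.13 without saline mouse E. Of the 23, 1 Ighm probe set was lower at an unadjusted p under 0.05 (2.38% of all probe sets), and the rank product called 2 Ighm probe sets lower (0.562%). For Ms4a1 the change was −0.03 with an interval of −1.26 to 1.20, and for Cd79b it was −0.01 with an interval of −0.87 to 0.85. Adding As to Dex likewise gave 0 called of 23, and 0% of all, with 1 Ighm probe set lower at an unadjusted p under 0.05 (1.16% of all) and 4 by rank product (3 of Ighm and 1 of Ms4a1, against 0.431%). Ms4a1 was 0.90 lower in Dex and As mice than in Dex mice, with an interval of −2.05 to 0.26. Over both pairs of groups, As gave 0 calls among the 23, and 0% of all. Ighm came nearest, at −1.51 ± 0.61 (unadjusted p = 0.0172, under 0.05 as in 1.85% of all probe sets in this direction, limma adjusted p = 0.999), and the groups without As hold 3 of the mice with high Ighm described below.

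Saline-injected mice differed more among themselves than uninjected control mice, without a detectable shift. The saline mice were sampled 8 h after injection and the control mice after 5 weeks, so injection and time cannot be told apart here. Ms4a1 averaged 7.22 ± 1.69 in saline mice and 7.53 ± 0.14 in uninjected AIN control mice (SD, n = 5 each). The 5 saline mice lay between 4.85 and 9.53, and the 5 control mice between 7.36 and 7.72. The SD was larger in saline mice for 8 of the 9 genes, by 12.3 times for Ms4a1 and 8.32 times for Cd79b, and smaller for Pax5. These ratios come from 5 mice a group, and the difference in spread was not tested. Saline mouse E had the highest value of its group for every one of the 9 genes, and also high values for thymus (8.27) and fat (9.56) lists. Cxcl13, the chemokine that draws B cells into follicles, was at 11.10 in this mouse, the highest of the 52, against a median of 6.49. Saline mouse C had the lowest value of its group for 8 genes, and mice C and B had the highest means of the 12 glucocorticoid target genes in it, 10.51 and 10.66, against 9.52 to 9.73 in the other 3. The group means did not differ for any probe set of the 23, where 0.00222% of all were called. At an unadjusted p under 0.05, 1 of the 23 was higher in saline mice, an Ighm probe set, against 1.61% of all, and the rank product called 2 of Ighm, against 0.389%. Without mice C and E, Dex and As against saline gave 0 calls, with Ms4a1 at −2.21 (limma adjusted p = 0.0559), and the average Dex comparison gave 5.

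**Figure D4:**
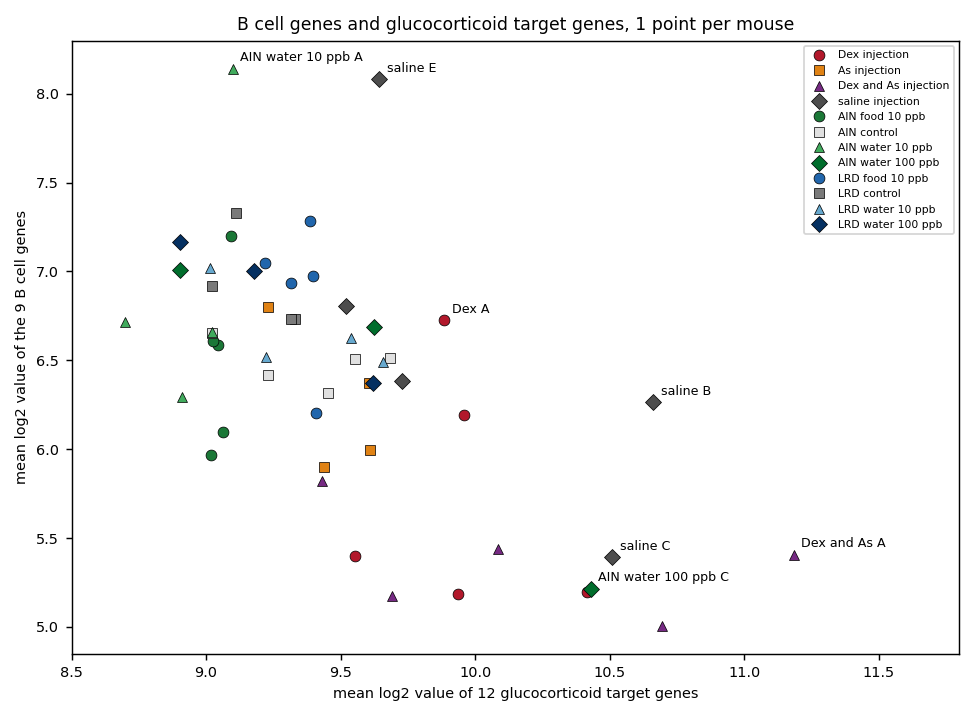
Mean log2 value of the 9 B cell genes (vertical) against the mean log2 value of 12 glucocorticoid target genes (horizontal), 1 point per mouse for 52 mice. Saline C and AIN water 100 ppb C lie among the Dex mice, with B cell means of 5.39 and 5.22, while saline E and AIN water 10 ppb A lie highest, at 8.08 and 8.14.

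Chronic As changed no B cell gene detectably on the AIN diet. With As in food 0 of 23 probe sets were called, and 0% of all, with 0 at an unadjusted p under 0.05 and 0 by rank product. Ms4a1 measured 8.39, 7.80, 6.90, 7.79 and 7.05 in mice with 10 ppb in food, against 7.49, 7.46, 7.72, 7.61 and 7.36 in control mice. The food mice lay on both sides of the control range, with a change of 0.06 and an interval of −1.10 to 1.22. Drinking water at 10 ppb gave 9.14, 7.23, 7.88 and 7.55, a change of 0.43 (−0.80 to 1.65), and at 100 ppb 8.07, 4.85 and 7.78, a change of −0.63 (−1.96 to 0.71). Both had 0 of 23 called, and 0% of all. So neither dose was separated from control, and with 3 to 5 mice a group changes of about the size seen with Dex lay inside the interval at 100 ppb.

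Single mice stood apart in the water groups. AIN water 10 ppb mouse A had the highest value of its group for 8 of the 9 genes, Cd79a at 9.49, Cd22 at 8.74 and Cr2 at 6.01. Its fat list mean was 10.19, and its genes of lymph node and lymphoid stroma averaged 7.12, the highest of the 52 mice. Among these were Glycam1, a mucin of lymph node venules (6.83, against a median of 3.27), and Cd209b, a lectin of marginal and sinus macrophages (7.46, against 3.82). AIN water 100 ppb mouse C had the lowest value of its group for all 9 genes, Ms4a1 at 4.85, Cd79a at 4.97 and Cd79b at 5.94, where mice A and D were at 8.07 and 7.78, 9.07 and 8.44, and 8.52 and 8.07. The same mouse had the lowest NK cell and T cell list means of the uninjected mice, 4.28 and 5.11, and their highest neutrophil and glucocorticoid target means, 10.70 and 10.43. The part of these cells or of a glucocorticoid response in its B cell values was not tested. At an unadjusted p under 0.05, 5 of the 23 probe sets were higher at 10 ppb in water, all of them Ighm probe sets, against 5.70% of all probe sets tested, and the rank product called 1 of them, against 0.0311%. At 100 ppb both counts were 0.

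On the LRD diet, too, no chronic As group was separated from its control. Food at 10 ppb, water at 10 ppb and water at 100 ppb each had 0 of 23 called, and 0% of all, and 0 at an unadjusted p under 0.05. The rank product called 1 probe set, of Ighm, lower with 10 ppb in water, against 0.129% of all. Ms4a1 measured 7.20, 8.57, 8.03, 8.22 and 7.89 with As in food, against 7.89, 8.02, 8.69 and 8.15 in LRD control mice. The groups overlapped, with a change of −0.21 (−1.43 to 1.02). In water it measured 7.30, 7.61, 8.27 and 7.56 at 10 ppb and 7.23, 8.53 and 8.42 at 100 ppb.

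The LRD diet gave slightly higher values than the AIN diet in all 9 genes, none of them past the test. Over the 16 LRD and 17 AIN mice of the chronic groups the changes lay between 0.10 and 0.49, with a median of 0.24 beside 0.00 for all probe sets. The median was 0.11 without AIN water 100 ppb mouse C and otherwise up to 0.34 with 1 mouse left out. None of the 23 probe sets was called, against 0.153% of all, and 0 were higher at an unadjusted p under 0.05, against 2.66%. Blk came nearest at 0.35 (interval −0.00 to 0.71, unadjusted p = 0.0512). In the control mice alone, Ms4a1 was 0.66 higher (−0.56 to 1.89) and was free of overlap, the only 1 of the 9, against 0.773% of all probe sets. No member was called there, against 0.0133%, and the rank product called Ms4a1, against 0.249%. The direction was not the same in every array batch: for Ms4a1 the difference between diets was above 0 in 4 of 5 batches and ran from −0.17 to 1.06.

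The brightest probe set of Ighm varied differently from the other genes. It measured 12.91, 8.73, 12.09, 9.29 and 7.43 in Dex mice, 8.25, 9.42, 9.24 and 8.55 in As mice, 9.90, 8.58, 9.41, 7.35 and 8.22 in Dex and As mice, and 10.35, 8.31, 9.66, 13.95 and 10.13 in saline mice. So 2 mice given Dex, A and C, were above 4 of the 5 saline mice. The second probe set, nearly as bright, measured 11.33, 8.04, 10.66, 7.91 and 7.29 in Dex mice, 8.36, 9.40, 9.21 and 8.66 in As mice, 8.36, 7.70, 8.61, 6.78 and 7.18 in Dex and As mice, and 9.32, 7.53, 9.19, 12.97 and 9.32 in saline mice. It changed with Dex over both pairs of groups by −0.90 ± 0.47 (limma adjusted p = 0.44), a change of the size of that of Cr2, and the rank product called it lower in all 3 pairs of groups. Both probe sets were high in Dex mice A and C and in saline mouse E. Over all 52 arrays the brightest probe set was above 12 in 6 mice, which come from 4 groups: Dex A and C, saline E, AIN water 10 ppb A (12.95) and E (12.23), and LRD food 10 ppb C (12.66). All other mice were at 10.80 or less.

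**Figure D5:**
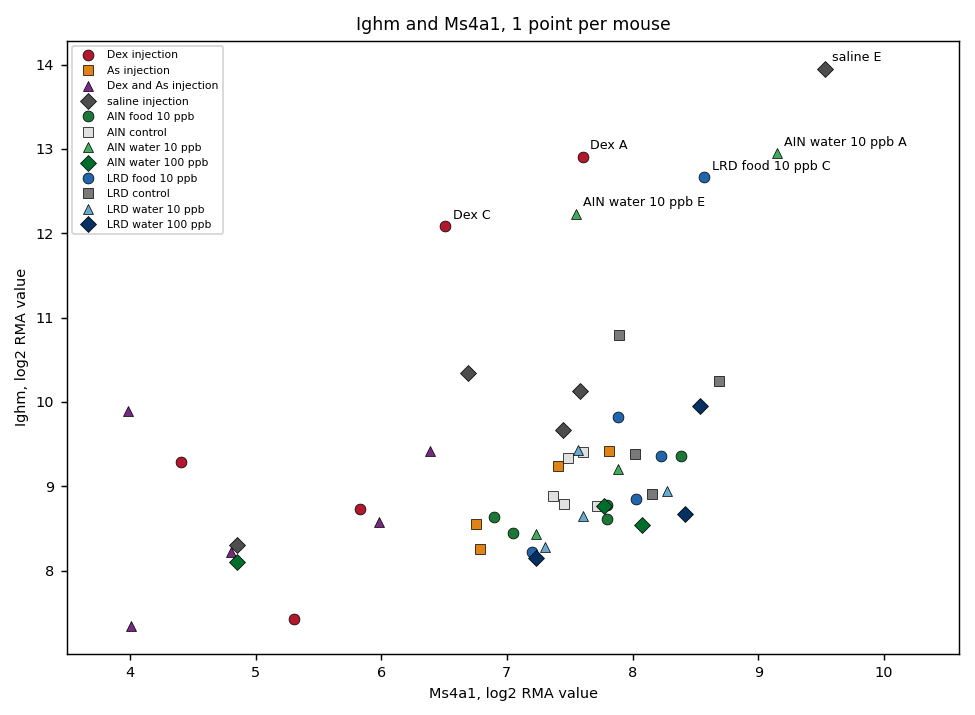
Log2 value of Ighm (vertical) against that of Ms4a1 (horizontal), 1 point per mouse for 52 mice. The 6 mice above 12 for Ighm are named and span Ms4a1 values from 6.51 to 9.53.

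In the same 6 mice some genes of the immunoglobulin and plasma cell list were high and others were not. Of the 13 genes, 4 (Jchain, Iglv1, Ighg3 and Derl3) were above their median over all mice in all 6, and 4 (Igk, Igha, Mzb1 and Tnfrsf17) in 5. Jchain, the chain that joins IgM and IgA into polymers, was between 9.13 and 11.63 in them, against a median of 7.15 over all mice, and the light chain gene Iglv1 was between 7.60 and 10.23, against 6.61. Mzb1, a chaperone of plasma cells and marginal zone B cells, was at 6.28 in Dex mouse C, below its median of 6.87. Prdm1, the transcription factor of plasma cells, was above its median in 1 of the 6, Sdc1, their surface proteoglycan, in 2 and Xbp1, a regulator of secretion, in 3. Adipoq, made by fat cells, was between 10.04 and 12.52 in the 6, against a median of 7.13. The fat list mean was 7.74 or more in 5 of the 6 and 6.72 in LRD food 10 ppb mouse C, and it was also high in mice with lower Ighm, such as saline mouse D (8.10). The part of fat RNA was not tested. The 11 Ighm probe sets did not give 1 picture. The 2 brightest had means of 9.41 and 9.14. Over the 52 arrays they correlated with the mean of the 7 other genes apart from Pax5 at r of 0.40 and 0.74, and at 0.60 and 0.79 after the group means were removed. The remaining 9 did so over the 52 arrays at 0.10 to 0.48. In AIN water 10 ppb mouse A, 4 of the other probe sets were at 9.61, 8.94, 6.99 and 7.47, against medians of 5.97, 4.38, 3.34 and 3.17, and the highest value of the other 5 mice in any of the 4 was 6.81. Probe sets of immunoglobulin genes can cross-hybridise with related genes, so their values are uncertain as measures of Ighm alone.

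Apart from Ighm and Pax5 the genes varied together from mouse to mouse. Each of the other 7 correlated with the mean of its 6 companions at r between 0.88 (Cd79a) and 0.96 (Cd79b) over the 52 arrays, and at 0.78 to 0.93 after the group means were removed, so that the tie did not rest on the Dex groups alone. Pax5 had an r of 0.26, at values near the floor of the array. These correlations describe mice that share 5 array batches and 1 normalization, and no test is given. Among genes with a mean log2 value above 5, the 10 most like the mean of the 9 were Spib (r = 0.96), Pou2af1 (0.94), H2-DMb2 (0.93), Bank1 (0.93), Fcmr (0.92), Cxcr5 (0.92), Gimap3 (0.91), Ighv14-2 (0.91), Fcrl1 (0.90) and Siglecg (0.90). Over the 12 group means their r lay between 0.94 and 0.99. Of these 10, 7 stand on the lists of B cell genes used here. Of the other 3, H2-DMb2 encodes a chain of the class II peptide loading factor, Gimap3 a GTPase of lymphocytes and Ighv14-2 an immunoglobulin variable segment.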

How the data were processed

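The authors prepared RNA from frozen lung, hybridised it to Affymetrix Mouse 430 2.0 arrays and deposited log2 values made by robust multiarray averaging (RMA). The version, and which arrays were normalized together, are not given in the sources used here. After removal of 64 control features from the 45101 deposited, 45037 probe sets were tested, of which 34945 carry 1 gene symbol in the platform annotation. Groups come from the sample labels. Array batch (5 of 11 arrays) comes from raw file names. Nothing in the labels says that mice with the same letter are paired: the median correlation of their deviations from group means was −0.00467, against −0.000918 for other letters and 0.283 within an array batch.

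One linear model over 52 arrays and 12 groups was fitted in limma 3.58.1 (R 4.3.3; moderated by empirical Bayes, with p-values adjusted in each comparison over the whole array by the Benjamini-Hochberg method, threshold 0.05, 40 residual degrees of freedom). It was tested on simulated data, as was a rank product, the method of the study (100 random orderings, called at an estimated false share under 0.05 rather than at the study's p-value threshold, Python 3.11.15, numpy 2.4.6). Each mouse is 1 replicate and precision is that of 3 to 5 mice a group. Named genes are the 9 members and, of each list, up to 4 called genes with the largest change. The members and lists were chosen with earlier results of these data known, and 2 averages over the injection design and 1 pair of left-out mice were added after the values had been seen. Other settings are in the closing section.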

Additional observations from a re-analysis of the deposited data

Results flagged for a closer look

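Of the values described, 8 stood far from the rest of their group by Dixon's criterion, among 90 combinations of a gene and a group of 4 or 5 mice. Chance flags about 1 in 20 groups, and the genes are not independent. LRD food 10 ppb mouse B was low for 2 genes: Cd79b was at 7.75, against 8.33 to 8.49 in the other 4 mice, and Cd22 at 6.89, against 7.80 to 7.90. In that mouse the mean of 10 muscle genes was 10.61, against 4.74 to 10.65 over all mice. Dex mouse A was high for Cd22, at 7.41, against 5.74 to 6.11 in the other Dex mice. AIN water 10 ppb mouse A was high for Cd22, at 8.74, against 7.06 to 7.28. LRD control mouse E was high for Blk, at 6.53, against 5.44 to 5.61. Fcer2a was low in Dex and As mouse C, at 4.51, against 4.80 to 4.91, and in LRD water 10 ppb mouse E, at 5.49, against 6.09 to 6.20. Pax5 was high in LRD food 10 ppb mouse D, at 4.51, against 3.84 to 4.03. The groups of 3 mice, which hold AIN water 100 ppb mouse C, were not examined in this way.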

How the results depend on the processing

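The settings tried were all 55 arrays, a fit for each experiment alone, a block for array batch or for the letter of the mouse (replicate block), weighting of arrays, a filter on dim probe sets (log2 above 5 on at least 4 arrays), quantile normalization, median centring, a trended robust prior, the rank product, and each mouse left out in turn. No called value changed direction under any of these. Medians of the 9 genes near 0 did when 1 mouse was left out, for As against saline (−0.39 to 0.13), the interaction (−0.28 to 0.23), saline against AIN control (−0.37 to 0.22), AIN food (−0.15 to 0.16), AIN water 10 ppb (−0.03 to 0.56), AIN water 100 ppb (−0.59 to 0.32), LRD food (−0.15 to 0.10) and LRD water 100 ppb (−0.15 to 0.23). Among the counts of B cell probe sets called lower for Dex against saline (0 as given), the replicate block, array weights and the filter gave 1 (Cd22), the rank product 9, and leaving out mice 0 to 1 (1 without Dex A or saline C). For Dex and As against saline (1), all 55 arrays, the separate fit, array weights, the trended prior and the fit without saline C and E gave 0, the batch block 2 (Cd79a and Ms4a1), the filter 3 and the rank product 10. Leaving out mice gave 0 to 7, with 7 without saline C and 0 without Dex and As A, E or F or saline D, E or F. Ms4a1 then changed by between −2.78 and −1.61 (adjusted p up to 0.236, without saline E), and by −1.41 with array weights. For Dex and As against As (0), the batch block and the filter gave 1, the rank product 8, and leaving out mice 0 to 1 (1 without Dex and As C or D). For both Dex groups (6), all 55 arrays gave 0, the other settings 4 to 6 (the rank product was not run for it), and leaving out mice 3 to 6 (3 without As B, Dex E or saline E). The replicate block gave 5 there, with Cd79a at −1.49 (adjusted p = 0.0507), but the letters do not pair the mice. The rank product also called 2 for As against saline, 4 for Dex and As against Dex, 2 for saline against AIN control, and 1 each for AIN water 10 ppb, LRD water 10 ppb and LRD control against AIN control. For AIN water 10 ppb (0), leaving out mice gave 0 to 4 (4 Ighm probe sets without C, 1 without D). A fit without both mice A and E of that group was also run, and its result is not given here. Apart from the rank product, the share of all probe sets called is not given for these other settings. The counts above are therefore not set beside the whole array. The causes of these shifts were not tested.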
